A study of Mus musculus with 15 samples.

Results

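The AP-1 and EGR transcription factors examined here are 10 genes taken by name from the tables of the series: the FOS family (Fos, Fosb, Fosl1 and Fosl2), the JUN family (Jun, Junb and Jund) and the EGR factors Egr1, Egr2 and Egr3. All 10 were present among the 55291 genes of each table. RNA was measured in 15 libraries, in 5 groups of 3. Control cells were HY19636 cultures, a single murine pancreatic ductal adenocarcinoma (PDAC) line isolated from a C57BL/6 mouse whose genotype included p53 L/+ and Ptf1a-Cre, a driver active in the pancreas. DON cells were the same line after 24 h with 25 µM DON (6-diazo-5-oxo-l-norleucine), a glutamine (Gln) analog that blocks enzymes that use Gln. noGln cells were the same line after 24 h in medium without Gln. Vehicle and DRP-104 tumors were HY19636 tumors grown in the pancreas of female B6J mice (8 to 10 weeks old) that received vehicle or 3 mg/kg of DRP-104, a prodrug of DON, daily for 5 days followed by 2 days without injection, in 2 such cycles, with collection on day 21. The alleles of the line were therefore shared by the cells of all 5 groups, and the tumors also held host cells. The sources do not state the time from the last dose to collection, nor whether the 3 cultures of a group were grown separately, so p-values measure the spread between these libraries, which may be technical.

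AP-1 is a dimer of a JUN protein with a FOS protein, another JUN protein or a related bZIP factor, and it binds short palindromic sites in promoters and enhancers. EGR factors are zinc finger proteins that bind GC-rich sites. Most of these genes are immediate early genes, which are transcribed within minutes of a signal through ERK, JNK or p38 kinases, and Fosl1 is known as a gene that stays high while RAS and ERK signaling is sustained.

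The culture libraries held 25.2 to 48.2 M (mega) reads and the tumor libraries 16.3 to 20.7 M. All 8 markers of ductal epithelium were detected in every group. Their summed level was 13039 to 15493 RPM (reads per mega reads) in control cells, 4186 to 4390 in DON cells and 5509 to 6113 in noGln cells. The sum was therefore lower in both treated cultures. By marker, 7 were lower and 1 higher after DON, and 8 lower and 0 higher without Gln (adjusted p under 0.05, by the fits below). The part of this in the members' values was not tested. Fibroblast markers summed to 15.3 to 19.0 RPM in control cells, where 5 of 9 (Col1a2, Dcn, Lum, Pdgfrb and Pdpn) were at 0, to 4.08 to 5.32 in DON and 36.7 to 37.9 in noGln cells, and to 2079 to 4345 in vehicle and 1029 to 1650 in DRP-104 tumors. Macrophage markers summed to 118 to 144 RPM in control cells, with Adgre1 and Lyz2 at 0, and to 413 to 574 in vehicle and 332 to 601 in DRP-104 tumors. All 6 islet markers were at 0 in all 9 cultures. Single tumors stood apart: T cell markers summed to 72.0 RPM in DRP-104 tumor 3 against 2.20 to 5.46 in the other tumors, and acinar markers to 167 in vehicle tumor 3 against 9.24 to 54.6.

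Per kilobase of exon, Junb was the most abundant member in every group. Its level was 281 ± 29.2 RPKM (RPM per kilobase, mean ± SD, n = 3 throughout) in control cells, 160.4 ± 18.7 in DON cells, 292 ± 24.5 in noGln cells, 300.2 ± 57.4 in vehicle tumors and 274 ± 62.8 in DRP-104 tumors. In control cells the other members followed in the order Jund (20.8 ± 1.66 RPKM), Fosl1 (13.2 ± 0.848), Fosl2 (12.7 ± 1.14), Jun (9.44 ± 0.526), Egr3 (5.0 ± 0.473), Egr1 (2.17 ± 0.0958), Fosb (1.96 ± 0.304), Fos (1.38 ± 0.167) and Egr2 (0.0498 ± 0.0543). The ranges of Fosl1 and Fosl2 overlapped, as did those of Egr1 and Fosb, so these neighbors were not separated beyond their spread, and the ranges of all other neighbors were apart. These levels rest on the gene lengths of the authors' FPKM table. Its gene ends differ from those of another annotation (GENCODE vM21) by up to 2457 bases for Egr3, 2425 for Junb and 1210 for Jund. The order of the members and the family sums under other gene lengths were not tested. HY19636 cells thus carried FOS family RNA mostly as Fosl1 and Fosl2, while Fos itself was near the bottom of the order.

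The order changed between the cultures. In noGln cells Fosl1 (47.5 ± 4.63 RPKM) and Jun (28.1 ± 0.970) stood above Jund (15.7 ± 1.56), and in DON cells Jun (17.8 ± 0.441) stood above Fosl2 (11.4 ± 0.590) and Fosl1 (9.30 ± 0.324). The summed level of the FOS family was 29.3 ± 1.92 RPKM in control, 22.4 ± 0.764 in DON and 81.5 ± 6.93 in noGln cells, with Fosl1 making up 45.3% ± 0.840, 41.5% ± 0.892 and 58.3% ± 1.34 (SD) of it. The JUN family summed to 311 ± 30.8, 204 ± 19.8 and 336 ± 26.5 RPKM, of which Junb made up 90.2% ± 0.411, 78.5% ± 1.56 and 86.9% ± 0.514 (SD). The 3 EGR factors summed to 7.22 ± 0.537, 7.94 ± 3.75 and 19.0 ± 2.94 RPKM.

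**Figure D1:**
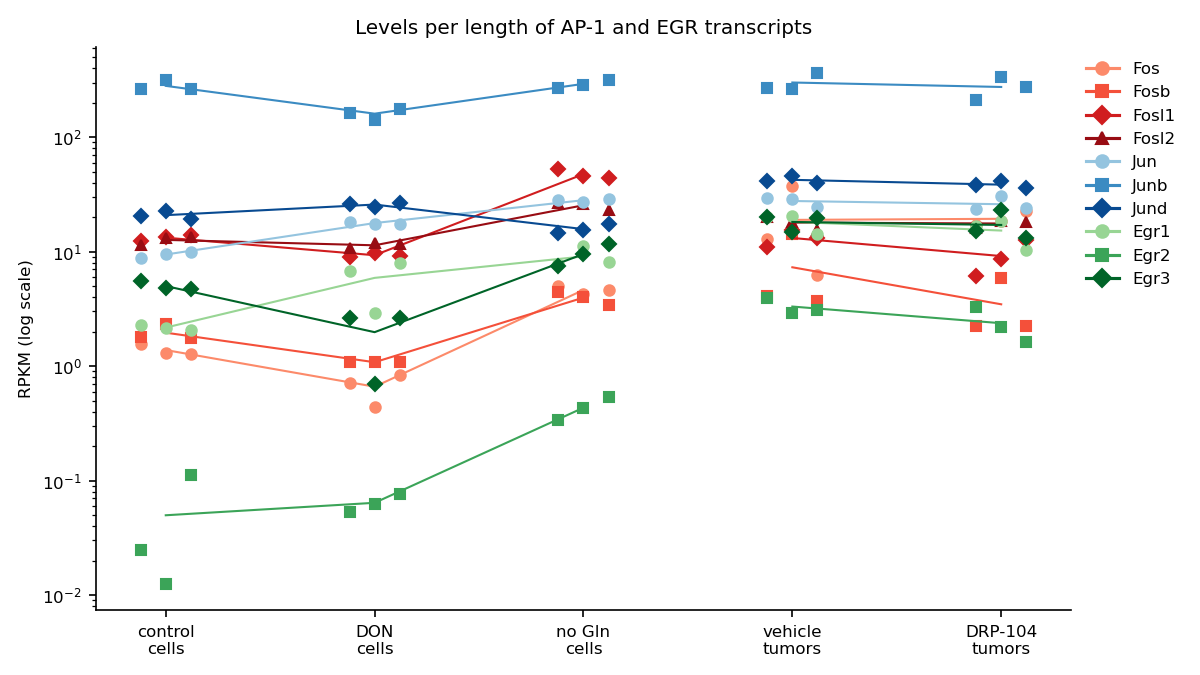
Level of each of the 10 genes in the 5 groups, in RPKM on a log axis. Points are libraries and lines join the group means. Junb lies on top in every group, Fosl1 is higher in noGln cells (47.5 RPKM) than in the other cultures, and Egr2 runs from 0.0498 RPKM in control cells to 3.31 in vehicle tumors.

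DON and Gln withdrawal were each compared with the same 3 control libraries, so these comparisons are not independent of each other. All changes are given as log2 fold changes ± SE of the deposited normalized count plus 1, and a gene counted as called when its limma p-value, adjusted by Benjamini-Hochberg over all genes tested, was under 0.05. After DON, 2 of the 9 members tested were higher (Jun and Egr1) and 6 were lower (Fos, Fosb, Fosl1, Fosl2, Junb and Egr3), in a comparison in which 33.3% of 13556 genes were called higher and 34.7% lower. Egr2 was below the minimum mean of 10 and was not tested. Without Gln, 8 of 10 members were higher (all but Junb and Jund) and Jund was lower, where 34.5% of 13390 genes were called higher and 34.9% lower. Among these 8, Egr2 passed the minimum mean only through its noGln libraries. The 3 DON libraries did not overlap with control for 8 of the 9 members, against 71.9% of all genes, and the noGln libraries for 9 of 10, against 73.6%. Such counts depend on the scaling: in RPKM, Fosl2 overlapped between DON and control cells and Jund did not. All 4 FOS family genes were lower after DON and all 4 were higher without Gln.

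**Figure D2:**
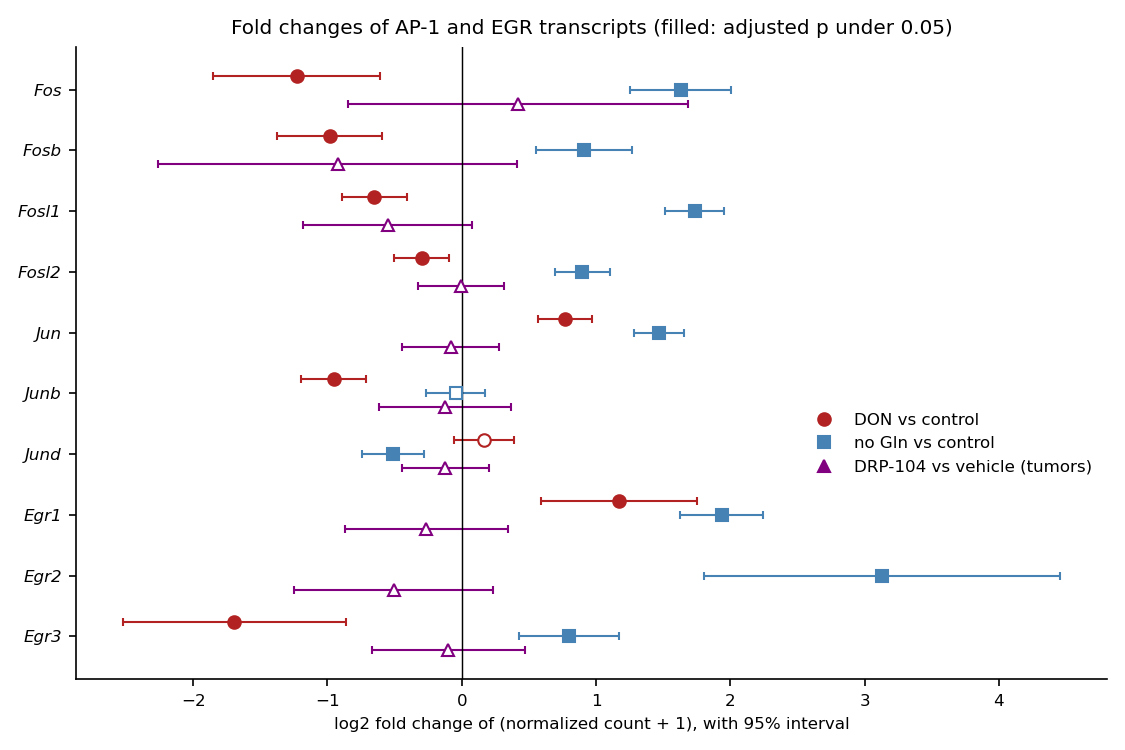
Log2 fold change of each gene after DON and without Gln relative to control cells, and after DRP-104 relative to vehicle tumors. Points are limma estimates, bars are 95% confidence intervals and filled points are called genes. The FOS family lies below 0 after DON and above 0 without Gln, Jun and Egr1 lie above 0 in both, and the intervals in tumors all include 0.

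DON and noGln cells were then compared directly, with the reads of all 9 culture libraries scaled together. Of the 10 members 9 were lower in DON than in noGln cells and 1, Jund, was higher, where 31.0% of 13514 genes were called higher and 32.3% lower. Egr2 again passed the minimum mean only through its noGln libraries. No DON library overlapped with a noGln library for any of the 10 members, while 71.7% of all genes showed no overlap. For Egr1 the gap was narrow, with 1044 in DON library 3 and 1050 in noGln library 1. In RPKM the Egr1 ranges overlapped, with a DON maximum of 7.96 and a noGln minimum of 7.87.

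Within the FOS family, whose proteins need a JUN partner to bind DNA, Fos (chr12:85473890-85477273 in the GRCm38 coordinates of the deposited annotation) is the prototype immediate early gene. Its normalized count was 45.4, 27.7 and 52.0 in DON libraries 1 to 3 and 113, 92.4 and 84.4 in the control libraries. In the separately scaled noGln table it was 310.2, 264 and 280.3 in noGln cells and 107, 87.3 and 81.4 in the same controls. DON library 2 was the lowest, and the groups did not overlap in either table. Fos fell by 1.23 ± 0.29 on the log2 scale after DON (adjusted p = 0.00179) and rose by 1.63 ± 0.17 (SE, adjusted p = 2.98e-06) without Gln. On the joint scale it averaged 41.0 ± 12.3 in DON and 288 ± 23.5 in noGln cells, a difference of -2.83 ± 0.23 (SE, adjusted p = 5.95e-08).

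Fosb (chr7:19302721-19310045), which encodes a FOS protein with a strong activation domain, stood at 122, 122 and 121 in DON and 229, 295 and 208 in control libraries. It stood at 494, 443 and 368 in noGln cells against 216, 278 and 201 in controls. The 3 DON libraries had nearly the same value (SD 0.544), and neither treated group overlapped with control. Its log2 fold change was -0.98 ± 0.18 (SE, adjusted p = 0.000276) after DON and 0.91 ± 0.16 (SE, adjusted p = 0.000275) without Gln. The direct difference of DON from noGln cells was -1.86 ± 0.16 (SE, adjusted p = 1.04e-07).

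Fosl1 (chr19:5447703-5455945), which encodes FRA1, a FOS protein without the activation domain of FOS, had the highest level of the FOS family in noGln cells, overlapped with Fosl2 in control cells and lay below Fosl2 in DON cells (RPKM). Its normalized count was 466, 496 and 466 after DON and 717, 781 and 746 in control cells. Without Gln it was 2654, 2274 and 2191, against 676, 737 and 719.7 in controls, so every noGln library held more than every control library. Fosl1 changed by -0.65 ± 0.11 (SE, adjusted p = 0.000159) after DON and by 1.73 ± 0.10 (SE, adjusted p = 1.36e-08) without Gln. DON cells differed from noGln cells by -2.35 ± 0.10 (SE, adjusted p = 6.26e-11), from 468 ± 18.0 to 2401 ± 249 normalized counts on the joint scale. Fosl1 shares 1162 exon bases (61.9% of its exon length) with Ccdc85b on the opposite strand, which held 593 to 2758 reads per library, and the use of strand in counting was not given in the sources used here, so the part of those reads in Fosl1 was not tested.

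Fosl2 (chr5:32136472-32157831), which encodes FRA2, had the smallest fold changes of the family. It was 1885, 2078 and 2015 in DON and 2266, 2643 and 2449 in control libraries, with a narrow gap between the groups. It was 4612, 4515 and 3924 in noGln cells against 2136, 2496 and 2362 in controls, with a wide gap. The changes were -0.30 ± 0.094 (SE, adjusted p = 0.0122) after DON and 0.90 ± 0.095 (SE, adjusted p = 2.64e-06) without Gln, and the direct difference of DON from noGln cells was -1.16 ± 0.088 (SE, adjusted p = 2.22e-08). The decrease after DON did not pass the threshold without DON library 1 (-0.26, adjusted p = 0.0709) or without control library 2 (-0.24, adjusted p = 0.0538).

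**Figure D3:**
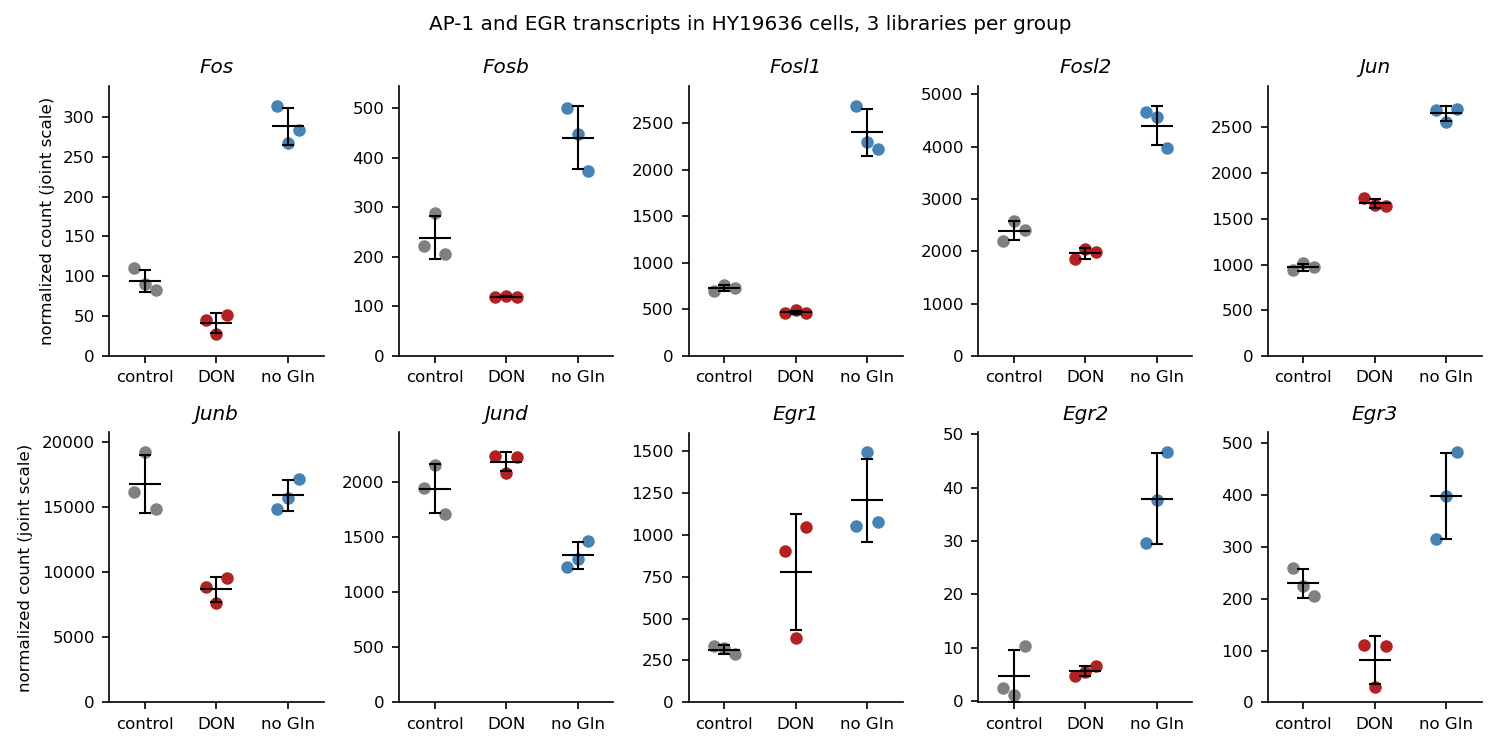
Normalized count of each gene in the 9 culture libraries after scaling their reads together, 1 panel per gene. Points are libraries and bars are mean ± SD of 3. DON libraries lie below and noGln libraries above the control libraries for the 4 FOS family genes, and DON library 2 lies apart from the other DON libraries for Egr1 and Egr3.

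The 250 bases before the RefSeq start (GRCm38.p6) of Fos, Fosb and Fosl2 are shown because these genes were called in the same direction in each culture comparison. Of the 10 members 7 matched the RefSeq promoter table by symbol, and Fosl1, Egr1 and Egr3 did not. Each window was searched on both strands for an AP-1 site (TGANTCA, in 6.75% of 32851 windows of the same length), a cAMP response element (TGACGTCA, 1.55%), its core (TGACG, 17.8%, also contained in the full element), a CArG box (1.47%), which binds SRF, an EGR site (GCGNGGGCG, 4.70%) and a C/EBP-ATF site (TGATGNAA, 3.45%). Capitals mark the matches, read 5′ to 3′ on the strand of the gene, and position -1 is the base before the start.
Fos (chr12:85473640-85473889, plus strand): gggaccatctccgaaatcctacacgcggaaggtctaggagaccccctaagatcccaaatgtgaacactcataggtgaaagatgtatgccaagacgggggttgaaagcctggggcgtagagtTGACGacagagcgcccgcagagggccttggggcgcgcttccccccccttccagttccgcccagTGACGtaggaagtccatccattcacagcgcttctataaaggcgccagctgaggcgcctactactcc
Fosb (chr7:19310046-19310295, minus strand): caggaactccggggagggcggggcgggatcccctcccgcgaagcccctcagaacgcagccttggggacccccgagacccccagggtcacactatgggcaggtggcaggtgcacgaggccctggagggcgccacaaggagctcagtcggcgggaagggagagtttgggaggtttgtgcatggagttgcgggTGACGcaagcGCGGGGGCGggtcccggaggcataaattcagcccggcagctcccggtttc
Fosl2 (chr5:32136222-32136471, plus strand): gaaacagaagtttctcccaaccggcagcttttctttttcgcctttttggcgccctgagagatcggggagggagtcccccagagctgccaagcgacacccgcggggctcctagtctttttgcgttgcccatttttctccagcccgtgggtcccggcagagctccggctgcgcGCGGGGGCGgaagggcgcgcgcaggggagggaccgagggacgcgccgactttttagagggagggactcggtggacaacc
Fos held core sites at -129 to -125 and at -66 to -62. Fosb held a core site at -60 to -56 and an EGR site at -50 to -42, and Fosl2 held an EGR site at -79 to -71. No exact match to the AP-1 site, the full cAMP response element, the CArG box or the C/EBP-ATF site lay in these 3 windows. Sequence beyond the 250 bases was not searched.

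In the JUN family, whose proteins also pair with each other, the 3 genes went different ways. Jun (chr4:95049034-95052222), a main target of JNK signaling, had normalized counts of 1755, 1675 and 1663 in DON and 963, 1037 and 987 in control libraries. It had 2664, 2532 and 2675 in noGln cells and 908, 979 and 952 in controls, so both treated groups lay above every control library. Jun rose by 0.77 ± 0.095 (SE, adjusted p = 6.22e-06) after DON and by 1.47 ± 0.087 (SE, adjusted p = 1.49e-08) without Gln, and on the joint scale DON cells differed from noGln cells by -0.67 ± 0.078 (SE, adjusted p = 2.18e-06). Jun shares 232 exon bases (7.28%) with its antisense gene Junos, which held 3 to 35 reads per library.

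Junb (chr8:84976909-84978748), which encodes a JUN protein that often acts against JUN, stood at 9013, 7777 and 9728 in DON libraries and 16670.2, 19662 and 15067 in controls. It stood at 14646, 15503 and 16983 in noGln cells and 15710.5, 18572 and 14531 in controls, where the ranges overlapped. Junb fell after DON (-0.95 ± 0.11, adjusted p = 4.40e-06). Its value without Gln was -0.046 ± 0.10 (SE, adjusted p = 0.705), with a 95% interval of -0.27 to 0.17, and its sign turned under quantile normalization (0.10). DON cells differed from noGln cells by -0.87 ± 0.10 (SE, adjusted p = 2.46e-06).

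Jund (chr8:70697739-70700616), which encodes the JUN protein that is present in resting cells, was 2281, 2116 and 2270.0 in DON and 2009.6, 2215 and 1744 in control libraries, with overlapping ranges. It was 1221, 1292 and 1454 in noGln cells and 1894, 2093 and 1682 in controls, with no overlap. The change after DON was 0.17 ± 0.10 (SE, adjusted p = 0.167), which did not pass the threshold, with a 95% interval of -0.055 to 0.39, and it passed under quantile normalization (0.24, adjusted p = 0.0479). Jund fell without Gln (-0.51 ± 0.11, adjusted p = 0.000854) and was higher in DON than in noGln cells by 0.71 ± 0.10 (SE, adjusted p = 1.20e-05), the one member with that direction. It shares 877 exon bases (52.6%) with Gm11175 on the opposite strand, which held 0 reads in every library.

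Among the EGR factors, Egr1 (chr18:34859823-34864984) is an immediate early target of ERK signaling through SRF and its ternary complex partners. It stood at 922, 392 and 1062 in DON libraries 1 to 3, of which library 2 was far below the other two, and at 347, 329.7 and 292 in controls. It stood at 1038, 1472 and 1061 in noGln cells and 327, 311 and 281 in controls, and no treated library overlapped with a control library. Egr1 rose by 1.17 ± 0.27 (SE, adjusted p = 0.00161) after DON, and by 1.62 without DON library 2. Without Gln it rose by 1.94 ± 0.14 (SE, adjusted p = 1.08e-07). DON cells differed from noGln cells by -0.73 ± 0.26 (SE, adjusted p = 0.0238). This difference was not called without DON library 2 (-0.29, adjusted p = 0.117), without noGln library 2 (-0.57, adjusted p = 0.109) or with DESeq2 (-0.63, adjusted p = 0.126).

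Egr2 (chr10:67535475-67542188), known as KROX20, was close to the detection limit in culture. Its recovered reads were 4, 6 and 8 in DON, 2, 1 and 16 in control and 28, 36 and 46 in noGln libraries. The noGln libraries were above all others, and control library 3 was above the other controls. In normalized counts Egr2 was 29.2, 37.2 and 46.0 in noGln cells and 2.37, 1.18 and 10.0 in controls, and it rose by 3.13 ± 0.61 (SE, adjusted p = 0.000534), from 2.64 to 3.80 when single libraries were left out. It passed the minimum mean of 10 only through the noGln libraries, which averaged 37.5 against 4.52 in controls. Being tested at all thus depended on the rise, here and in the direct comparison with DON cells. With a pseudocount of 8 the rise was 1.91, level with that of Egr1 (1.91), and with edgeR it was 2.78. On the joint scale DON cells averaged 5.58 ± 0.963 and noGln cells 37.9 ± 8.51, a difference of -2.55 ± 0.61 (SE, adjusted p = 0.00194).

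Egr3 (chr14:70077445-70080157), a further target of the same signals, was 112, 29.6 and 110.0 in DON libraries, again lowest in library 2, and 268, 229.8 and 208 in controls. It was 311, 393 and 476 in noGln cells and 252, 217 and 200.4 in controls, and the groups did not overlap in either table. Egr3 fell after DON (-1.69 ± 0.39, adjusted p = 0.00145), with a value of -1.07 without DON library 2. It rose without Gln (0.80 ± 0.17, adjusted p = 0.00104), and its difference of DON from noGln cells was -2.46 ± 0.36 (SE, adjusted p = 2.67e-05). Egr1 and Egr3, both EGR factors, therefore differed in direction after DON and shared it without Gln.

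The 250 bases before one of 5 RefSeq starts of Egr2 are shown because 4 of these 5 windows held a CArG box, which the windows of Fos, Fosb, Fosl2, Jun, Junb and Jund did not. The windows that start at chr10:67537619, chr10:67537620 and chr10:67537680 overlap and hold the same box, and the one at chr10:67537316 holds another. Egr2 also had more windows to search than each of those genes, which had a single window. Sequence beyond the 250 bases was not searched, and Egr1 and Egr3 had no window. The absence of a box from a window therefore does not show that a gene lacks one. The window nearest to the start of the gene in the deposited annotation (chr10:67535249-67535498) held no match to any of the motifs, and the one shown was chosen for its matches, which are in capitals.
Egr2 (chr10:67537619-67537868, plus strand): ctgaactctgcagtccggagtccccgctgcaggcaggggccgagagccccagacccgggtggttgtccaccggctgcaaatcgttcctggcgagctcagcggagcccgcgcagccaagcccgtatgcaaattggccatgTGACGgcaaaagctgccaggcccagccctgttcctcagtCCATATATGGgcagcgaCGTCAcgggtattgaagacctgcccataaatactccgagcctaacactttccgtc
The CArG box lay at -72 to -63, between core sites of the cAMP response element at -111 to -107 and, on the opposite strand, at -55 to -51. The windows of Jun and Jund held no exact match to any of the motifs, and that of Junb held a core site at -106 to -102. Near matches were not counted, and the Jun window held such a sequence, tgacatca, close to the full cAMP response element TGACGTCA. A match is a description of letters and does not show that a factor was bound.

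In tumors, no member was called after DRP-104. The comparison called 0 of 15454 genes with limma (0%), 0 with edgeR and 56 with DESeq2, and 775 genes had an unadjusted limma p-value under 0.05. None of the 10 members had vehicle and DRP-104 tumors without overlap, against 10.6% of all genes. In bulk tumors, fewer cells of a type and less RNA per cell cannot be told apart. Fibroblast markers summed to less in each DRP-104 tumor than in any vehicle tumor. In the FPKM table they overlapped, at 1017 to 2968 FPKM in DRP-104 and 755 to 1232 in vehicle tumors, and their part in these values was not tested.

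Fos, at 708, 741 and 859 in DRP-104 and 492, 1519.5 and 250.3 in vehicle tumors 1 to 3, ranged widely among the vehicle tumors, of which tumor 2 was high and tumor 3 low. Its log2 fold change was 0.42 ± 0.55 (SE, adjusted p = 0.937), and it was -0.17 without vehicle tumor 3 and 1.12 without vehicle tumor 2. Fosb, at 166, 419 and 153 in DRP-104 and 274, 1019.5 and 261 in vehicle tumors, was also highest in vehicle tumor 2. Its value was -0.92 ± 0.58 (SE, adjusted p = 0.916), or -0.28 without that tumor.

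Fosl1 was 209, 279 and 390.2 in DRP-104 and 334, 505 and 426 in vehicle tumors, with a log2 fold change of -0.55 ± 0.27 (SE, adjusted p = 0.916) and a 95% interval of -1.18 to 0.077. Egr2 was 191, 123 and 88.2 in DRP-104 and 210.0, 166 and 173 in vehicle tumors, with a log2 fold change of -0.51 ± 0.32 (SE, adjusted p = 0.916). In both genes 1 DRP-104 tumor lay within the range of the vehicle tumors. 

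Among the JUN genes, Jun was 1481, 1827 and 1388 in DRP-104 and 1694, 1776 and 1483 in vehicle tumors. Junb was 7730.3, 11719 and 9119 against 8878, 9395 and 12769.5, and Jund was 2160.1, 2239 and 1891 against 2140.4, 2544 and 2169.7. The tumors of both groups were mixed in each of these genes. The log2 fold changes were -0.082 (95% interval -0.44 to 0.28) for Jun, -0.12 (-0.61 to 0.37) for Junb and -0.12 (-0.45 to 0.20) for Jund.

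Fosl2 was 1865, 2042 and 1937 in DRP-104 and 2121, 2046 and 1718 in vehicle tumors, with a log2 fold change of -0.0052 (95% interval -0.32 to 0.31). Egr1 was 1492, 1580.3 and 840.2 against 1617, 1761 and 1202, with -0.26 (-0.87 to 0.35). Egr3 was 421, 617 and 338 against 509, 401 and 530.4, with -0.10 (-0.67 to 0.47). DRP-104 tumor 3 held the lowest Egr1 and Egr3 values of the 6 tumors. The directions in tumors rest on the table used: in the deposited FPKM table, whose columns were not matched to these tumors, 9 of the 10 values (all but Fos) had the opposite sign and 0 were called.

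**Figure D4:**
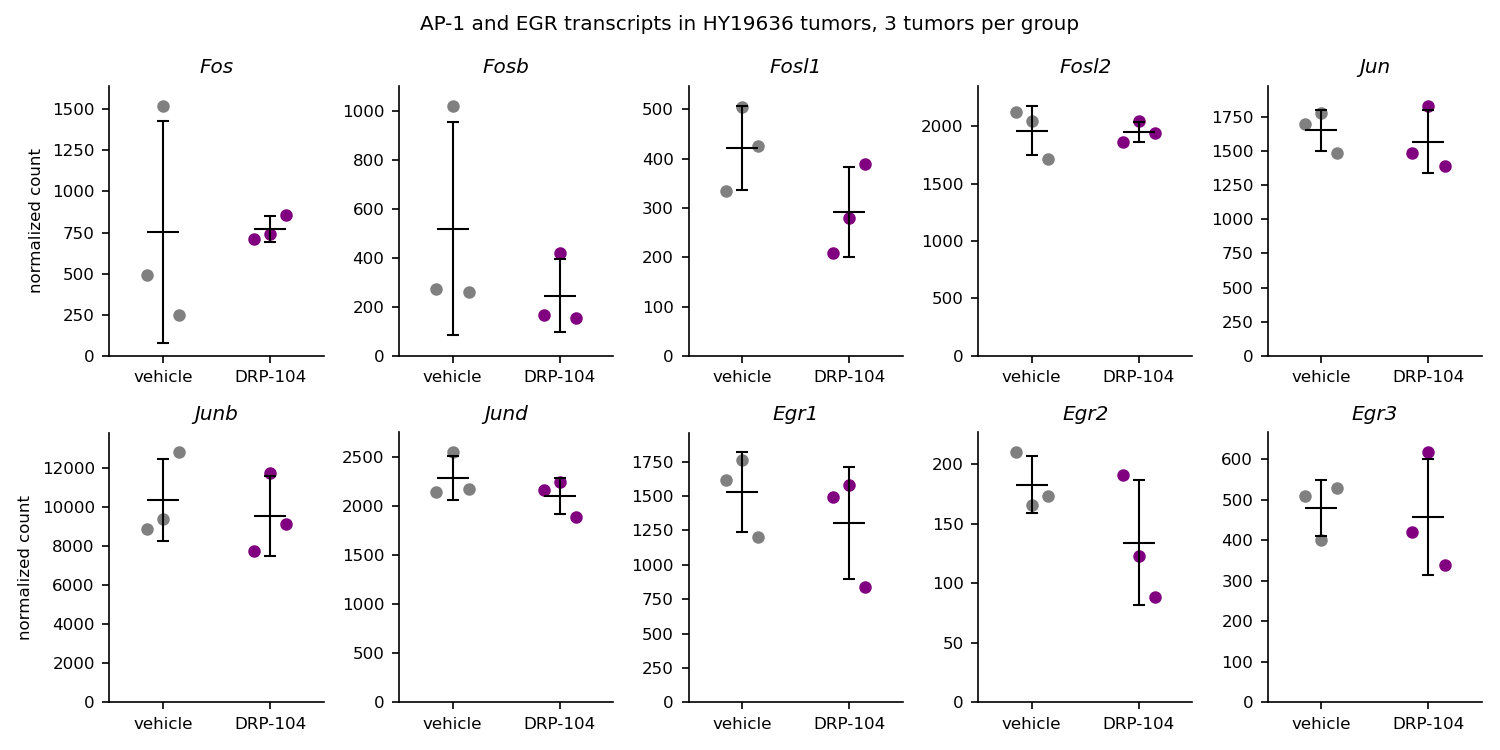
Normalized count of each gene in the 3 vehicle and 3 DRP-104 tumors, 1 panel per gene. Points are tumors and bars are mean ± SD of 3. The groups overlap in every panel, and vehicle tumor 2 lies far above the others for Fos and Fosb.

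Per length, several members were higher in vehicle tumors than in control cells, and as host cells and separate scaling differ between tumors and cultures, these levels are given with no test. Fos was 18.9 ± 16.5 RPKM in vehicle tumors and 1.38 ± 0.167 in control cells, Egr1 18.2 ± 3.52 and 2.17 ± 0.0958, and Egr2 3.31 ± 0.546 and 0.0498 ± 0.0543. Egr3 (18.2 ± 2.96 and 5.0 ± 0.473), Jun (27.7 ± 2.72 and 9.44 ± 0.526) and Jund (42.4 ± 3.25 and 20.8 ± 1.66) showed the same order, without overlap. So did Fosb (7.30 ± 5.95 and 1.96 ± 0.304) and Fosl2 (17.9 ± 2.33 and 12.7 ± 1.14). This order does not hold for all cultures: noGln cells held more Fosl1 (47.5) and Fosl2 (25.4) than vehicle tumors. Their Jun and Fosb ranges overlapped with those of vehicle tumors. The ranges of Fosl1 (13.2 ± 2.26 and 13.2 ± 0.848) and Junb overlapped between vehicle tumors and control cells. The Fosl1 level depends on the table used: in the FPKM table it averaged 46.0 ± 4.21 FPKM in vehicle and 61.7 ± 5.30 in DRP-104 tumors, where Junb (330.5 ± 84.9 in vehicle tumors) and Jun (23.6 ± 1.72) were nearer to their RPKM, so the rank of Fosl1 among the members is uncertain, and the cause was not tested.

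The effect of DRP-104 in tumors was then set against that of DON in cells by the difference of the fold changes. This difference passed the threshold for 4 of 10 members, 2 higher and 2 lower, where 19.1% of 15070 genes were called higher and 14.0% lower. For Jun the difference was -0.85 ± 0.17 (SE, adjusted p = 0.00191), from a change of 0.77 in cells and -0.082 in tumors, and it was called whichever of the 12 libraries was left out. For Junb it was 0.83 ± 0.25 (SE, adjusted p = 0.0217), for Egr1 -1.43 ± 0.46 (SE, adjusted p = 0.0280) and for Egr3 1.59 ± 0.58 (SE, adjusted p = 0.0476). These did not pass in every fit that left out 1 library. The call was lost in 4 of 12 such fits for Junb (0.73 to 0.77 without DON library 2, control library 2, vehicle tumor 1 or vehicle tumor 2). It was lost in 6 of 12 for Egr1 (-1.45 to -1.16 without DON library 1 or 3, control library 2 or 3, or vehicle tumor 1 or 2). It was lost in 9 of 12 for Egr3 (0.97 to 1.68, all but those without DON library 1, DON library 3 or DRP-104 tumor 3), with the lowest value, 0.97, without DON library 2. The Egr3 call was also lost with edgeR (adjusted p = 0.0628), a pseudocount of 0.5 (0.0507), no filter on the mean (0.0736) and quantile normalization (0.164), and the Junb call under quantile normalization (0.0716). For Fos, Fosb, Fosl1, Fosl2, Jund and Egr2 the difference was not called. For Fos it was 1.65 ± 0.67 (SE, adjusted p = 0.0747), and it was called without vehicle tumor 2 (2.35), as was Egr2 without control library 3 (-1.74). Egr2 passed the minimum mean here only through the tumors. Without control library 3 its controls held 2 and 1 reads, so that fit cannot decide whether the effects differ. Markers of epithelium moved with this comparison, 7 of 8 being called higher in it, and their part in the members' differences was not tested.

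Other genes of the AP-1 and EGR pathways were described by fixed lists. Among 12 further bZIP partners of AP-1, 8 were tested in culture. Over all genes, 33.3% were called higher and 34.7% lower after DON, and 34.5% and 34.9% without Gln. In DON against noGln cells these shares were 31.0% and 32.3%. After DON 7 were higher and 1 lower, with a median log2 fold change of 0.80 where the median of all genes was 0.02, and without Gln 8 were higher and 0 lower, with a median of 0.86 where that of all genes was 0.0059. Atf3, a stress-induced partner of JUN, rose by 3.34 ± 0.14 (adjusted p = 1.40e-10) after DON and 3.30 ± 0.14 (adjusted p = 1.05e-09) without Gln. Jdp2, a repressor that dimerizes with JUN, rose by 2.20 ± 0.10 (adjusted p = 3.72e-10) after DON and by 0.76 ± 0.11 (adjusted p = 3.51e-05) without Gln. Maf fell after DON (-1.97 ± 0.18, adjusted p = 3.00e-07) and rose without Gln (0.94 ± 0.13, adjusted p = 2.39e-05). The small MAF factors Mafk (1.68 ± 0.088, adjusted p = 5.52e-09) and Maff (1.04 ± 0.10, adjusted p = 1.46e-06) rose without Gln. Both also rose after DON (0.81 ± 0.091, adjusted p = 2.53e-06 and 0.79 ± 0.11, adjusted p = 3.26e-05). Directly, 2 of 8 partners were higher (Jdp2 and Mafg) and 3 lower (Atf2, Maf and Mafk) in DON than in noGln cells, these names being given after the values were seen.

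In 32 other immediate early genes, 30 were tested in culture. The shares called among all genes were 33.3% higher and 34.7% lower after DON, and 34.5% and 34.9% without Gln. Directly they were 31.0% higher and 32.3% lower in DON cells. After DON 7 were higher and 17 lower (median -0.45), and without Gln 19 were higher and 5 lower (Btg2, Ccn2, Dusp1, Ier3 and Zfp36l1, median 0.50). In the direct comparison 3 were higher (Klf2, Plk3 and Rhob) and 24 lower in DON cells (median -1.04, all genes -0.01). Ccn2, a matricellular protein, and the antiproliferative Btg2 fell after DON (-3.20 ± 0.11, adjusted p = 2.15e-11 and -2.70 ± 0.18, adjusted p = 1.55e-08), while the kinase Plk2 rose by 2.41 ± 0.11 (adjusted p = 4.59e-10). Plk2 also rose without Gln (3.51 ± 0.12, adjusted p = 1.59e-10), as did the zinc finger factor Klf6 (2.51 ± 0.11, adjusted p = 9.84e-10) and Myc (2.49 ± 0.080, adjusted p = 1.37e-10). Klf6 (1.57 ± 0.11, adjusted p = 1.26e-08) and Myc (1.03 ± 0.088, adjusted p = 1.67e-07) were among those that rose after DON.

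Of 20 genes known as AP-1 targets, 19 were tested after DON, with 1 higher and 14 lower (median -1.38). Among all genes the shares were 33.3% higher and 34.7% lower after DON, and 34.5% and 34.9% without Gln. In the direct comparison they were 31.0% and 32.3%. Without Gln 18 were tested, with 8 higher and 8 lower (median 0.15), and DON cells were higher for 3 (Mmp10, Spp1 and Vim) and lower for 14 of 18 than noGln cells (median -1.19). Tissue factor F3 (-2.34 ± 0.092, adjusted p = 8.19e-11) and osteopontin Spp1 (-2.33 ± 0.17, adjusted p = 3.18e-08) fell after DON, and the chromatin protein Hmga1 was the 1 that rose (0.37 ± 0.12, adjusted p = 0.0115, named after its value was seen). Without Gln, Spp1 fell (-2.88 ± 0.16, adjusted p = 9.44e-09), while the EGFR ligand amphiregulin Areg (2.82 ± 0.082, adjusted p = 8.07e-11) and follistatin Fst (2.61 ± 0.21, adjusted p = 2.62e-07) rose. Spp1 thus had the same direction in both comparisons, which share their controls.

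**Figure D5:**
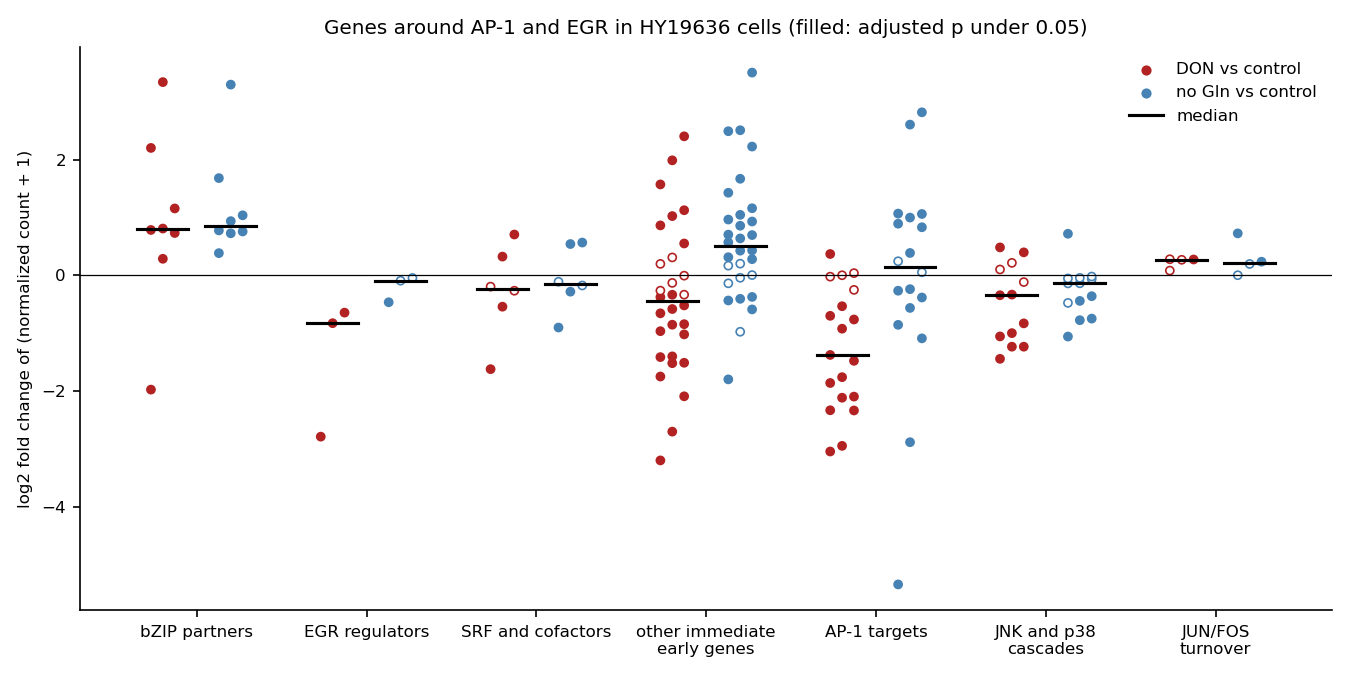
Log2 fold changes of the tested genes of 7 lists after DON and without Gln relative to control cells. Points are genes and bars are list medians. The median of the other immediate early genes is -0.45 after DON and 0.50 without Gln, and the partners of AP-1 have medians of 0.80 and 0.86.

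Among the remaining EGR factors and the NAB corepressors, which bind EGR proteins and limit their activity, 3 of 4 genes were tested. All 3 fell after DON, with -2.79 ± 0.18 (adjusted p = 9.67e-09) for Wt1, a zinc finger factor with an EGR-like binding site, -0.83 ± 0.17 (adjusted p = 0.000692) for Nab2 and -0.64 ± 0.12 (adjusted p = 0.000387) for Nab1. Without Gln 1 fell, Nab2 (-0.46 ± 0.12, adjusted p = 0.00337), and 0 rose. Of SRF and 5 of its cofactors, 2 were higher and 2 lower in each comparison. This is close to the shares over all genes, 33.3% higher and 34.7% lower after DON, and 34.5% and 34.9% without Gln. The ternary complex factor Elk3 fell in both (-1.62 ± 0.090, adjusted p = 2.05e-09 after DON and -0.90 ± 0.085, adjusted p = 9.78e-07 without Gln), and Srf itself fell after DON (-0.54 ± 0.095, adjusted p = 0.000175) and rose without Gln (0.54 ± 0.086, adjusted p = 9.99e-05). Elk1 rose after DON (0.71 ± 0.10, adjusted p = 3.11e-05) and Mrtfa without Gln (0.57 ± 0.10, adjusted p = 0.000255). The other called genes, named after their values were seen, were Mrtfa after DON (0.33 ± 0.11) and Mrtfb without Gln (-0.28 ± 0.095).

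Of 14 genes of the JNK and p38 kinase cascade 13 were tested. For comparison, 33.3% of all genes were called higher and 34.7% lower after DON, and 34.5% and 34.9% without Gln. The 5 lower genes of this list without Gln were near that share. After DON 2 were higher (Map2k7, 0.48 ± 0.094, and Mapk8, which encodes JNK1, 0.40 ± 0.13, both named after their values were seen) and 8 lower (median -0.34). Without Gln 1 was higher (Mapk8, 0.72 ± 0.13) and 5 were lower (Map3k5, Map3k11, Mapk9, Mapk11 and Mapk12, median -0.14). Map3k5, which encodes the kinase ASK1, fell after DON (-1.44 ± 0.10, adjusted p = 1.07e-08) and without Gln (-1.06 ± 0.093, adjusted p = 5.44e-07), as did the p38 gene Mapk11 (-1.05 ± 0.20, adjusted p = 0.000313 and -0.77 ± 0.17, adjusted p = 0.00120). Map2k6 fell after DON (-1.23 ± 0.12, adjusted p = 8.39e-07) and Mapk12 without Gln (-0.75 ± 0.14, adjusted p = 0.000426). Of 4 ubiquitin ligase components that act on JUN or FOS proteins, Itch was higher after DON (0.28 ± 0.11, named after its value was seen) and Itch (0.73 ± 0.11, adjusted p = 7.12e-05) and Cop1 (0.24 ± 0.091, adjusted p = 0.0330) without Gln. No gene of these 7 lists was called in tumors.

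The genes whose pattern was most like each member were found by Pearson's r of log2 values over the 9 culture libraries, among 10430 genes with a mean of at least 100. These points share their libraries and fall into 3 groups, so r is a description of the group pattern. Fos was most like Trmt1l (r = 0.996), Fam83f (0.992) and Hbegf (0.989), the last of which encodes an EGFR ligand and is in the list of AP-1 targets. Fosb was most like Fgd3, Mob3c and Pcdh1, and Fosl1 most like Arl6ip5 and the receptor gene Epha2. Fosl2 was most like Pfkfb3, Ppp1r10 and its own family member Fosl1 (r = 0.992), the one case in which a member was among the 3 genes nearest to another. Jun was most like Bbs4, Yrdc and Ccdc137, Junb most like Rgs3, Stom and Zdhhc9, and Jund most like Pgpep1, Rcc2 and Fbh1. Egr1 was most like Cnksr2 (r = 0.974), Gm14325 and Zfp984, Egr2 most like Tyw5, C330018D20Rik and Brwd1, and Egr3 most like Armh3, Spry4, a feedback inhibitor of ERK signaling, and 2310030G06Rik.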

How the data were processed

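RNA of cells and tumors was isolated by the authors (TRIzol, column purification), and library preparation, HISAT2 alignment and DESeq2 were run by Novogene. The submitters' processing notes also list CASAVA, STAR 2.5 and GRCm39, while the gene coordinates of the authors' FPKM table are those of GRCm38 (72.3% of 34411 genes have the start and end of GENCODE vM21). Counting tool and use of strand were not given in the sources used here. The deposited signal of the DON, noGln and DRP-104 tables is a count per gene over a size factor of that library, set within each table. The authors' fold changes and p-values in these tables were not used. The FPKM values deposited by the authors cover tumors, and their columns did not match the same-named count columns (correlations of deviations of -0.139 to 0.282 over 11359 genes), so they served as an alternative and for gene lengths. The control columns of the culture tables carry the vehicle name. Their reads were the same in both tables (0 differed) and differed from the same-numbered vehicle tumors in 22919 to 23505 genes.

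Dividing by what 1 read is worth in a library gave whole reads for 99.9% to 100% of the values of each library (tolerance 0.0051). Among genes with 1 to 20 reads, 69.6% to 72.7% were even in cultures and 41.9% to 46.5% in tumors, so reads in cultures may not be independent fragments, and counting intervals were not given. RPKM were computed from these reads and gene lengths. Comparisons used limma 3.58.1 (lmFit, eBayes with trend, R 4.3.3) on log2(value + 1), for genes that averaged at least 10, with only the libraries compared and Benjamini-Hochberg adjustment over all genes. A log2 fold change on this scale understates the change of low genes. DON and noGln cells were compared on reads of all 9 cultures scaled by median-of-ratios, and tumors with cells by an interaction contrast on the deposited values. The fits were tested on simulated data beforehand. Alternatives were edgeR 4.0.16, DESeq2 1.42.0, other pseudocounts, filters and thresholds, quantile normalization, the FPKM table, a replicate block and leaving out each library. List counts without DON library 2 were added after the data were seen.

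The members and gene lists were chosen with earlier results of these data known, so p-values over the lists alone were not computed. All members were named, with, from each list and culture comparison, up to 3 genes with the largest absolute fold change past the threshold, an average of at least 100 and groups that did not overlap, and the 3 genes most like each member. Python 3.11, numpy 2.4.6, pandas 2.3.3, scipy 1.17.1 and matplotlib 3.10.9 were used. An allele of the line and some genes that the rules would name are not reported here.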

Additional observations from a re-analysis of the deposited data

Results flagged for a closer look

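The change after DRP-104 in tumors differed from that after DON in cells for 4 members, by limma's test of the difference itself. Jun differed by -0.85 on the log2 scale (adjusted p = 0.00191), and it was above control in all 3 DON cultures while the tumor groups overlapped. Egr1 differed by -1.43 (adjusted p = 0.0280), with the same pattern. Junb differed by 0.83 (adjusted p = 0.0217) and Egr3 by 1.59 (adjusted p = 0.0476), both lower in all 3 DON cultures and overlapping in tumors. Of these, Jun was called under each alternative run. The Egr3 call was lost with edgeR (adjusted p = 0.0628), a pseudocount of 0.5, no filter on the mean or quantile normalization, the Junb call under quantile normalization (adjusted p = 0.0716), and those of Egr1, Junb and Egr3 when some single libraries were left out or at a threshold of 0.01. Cells and tumors also differ in drug form, dose, exposure time and host cells, which cannot be told apart here.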

How the results depend on the processing

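Over the alternatives, 764 of 833 recomputed member values kept their direction and their side of the threshold, and 31 turned their sign, 21 of them in tumors or in noGln values of Junb that were not called and 10 in tumor-minus-cell differences that were not called. In tumors the FPKM table gave the opposite sign for Fosb (0.50), Fosl1 (0.42), Fosl2 (0.23), Jun (0.45), Junb (0.32), Jund (0.67), Egr1 (0.050), Egr2 (0.22) and Egr3 (0.30), none of them called, and the cause was not tested. Quantile normalization turned Junb without Gln to 0.10 and Fosl2 in tumors to 0.029, and the tumor-minus-cell difference of Fosb to -0.57 and of Fosl1 to -0.20. It moved the median of all genes after DON from 0.0225 to 0.127 and in the tumor-minus-cell difference from -0.0168 to -0.126. The difference of Fosb was -0.11 with edgeR and -0.11 with DESeq2. That comparison called 1 member and 3007 genes at an adjusted p-value under 0.01 and 2 members under quantile normalization. DESeq2 called 56 genes in tumors, 0 of them members.

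Leaving out single libraries gave 7 to 8 called members after DON, 9 in each fit without Gln, 9 to 10 for DON against noGln, 0 in tumors and 1 to 4 for the tumor-minus-cell difference. Values that turned their sign ranged from -0.12 to 0.054 for Junb without Gln, and in tumors from -0.17 to 1.12 for Fos, -0.10 to 0.054 for Fosl2, -0.28 to 0.039 for Junb, -0.43 to 0.027 for Egr1 and -0.33 to 0.10 for Egr3. The tumor-minus-cell difference ranged from -0.40 to 0.70 for Fosb and -0.13 to 0.32 for Fosl1, and the difference of Fos was called without vehicle tumor 2 (2.35). That of Egr2 was called without control library 3 (-1.74), where its remaining controls held 2 and 1 reads. Without DON library 2, an alternative chosen after seeing the data, 23 instead of 24 other immediate early genes, 9 instead of 10 JNK and p38 genes, and 15 AP-1 targets, 8 partners and 3 EGR regulators as before were called after DON. Groups share replicate numbers, and the titles do not say whether these pair the samples. Correlations of same-numbered deviations ran from -0.365 to 0.0818. Some libraries, such as DON 1 and DON 3 with control, were closest to their own number and others were not. With 3 libraries a group this cannot exclude a pairing. A fit with the replicate number as a block called 8 members after DON, 9 without Gln, 0 in tumors, 10 for DON against noGln and 3 for the tumor-minus-cell difference, where Egr3 was lost (adjusted p = 0.0634). With 3 libraries a group and intervals in tumors as wide as -2.26 to 0.41 for Fosb, changes of the size seen in culture could not be told from 0 in tumors for members such as this one.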
